A study of Mus musculus with 6 samples.

Results

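The 10 genes Acly, Acaca, Acacb, Fasn, Scd1, Scd2, Cpt1a, Cpt1c, Cpt2 and Acadl encode enzymes of fatty acid synthesis and fatty acid oxidation. They were taken by symbol, without any measured value, from the 22623 genes of the count matrices, and all 10 were present in all 6 matrices. In synthesis, ATP citrate lyase (Acly) makes cytosolic acetyl-CoA, the acetyl-CoA carboxylases (Acaca and Acacb) make malonyl-CoA, fatty acid synthase (Fasn) builds palmitate, and the stearoyl-CoA desaturases (Scd1 and Scd2) add a double bond. In oxidation, carnitine palmitoyltransferases of the outer and inner mitochondrial membranes (Cpt1a and Cpt2) carry long-chain fatty acids into mitochondria, and long-chain acyl-CoA dehydrogenase (Acadl) starts their breakdown. Cpt1c is a relative of Cpt1a that is best known from neurons, sits in the endoplasmic reticulum and has little transferase activity. Malonyl-CoA, the product of the carboxylases, blocks the outer carnitine palmitoyltransferase, so both pathways rarely run together. Tumor cells often make their own fatty acids, and macrophages switch between synthesis and oxidation as they are activated.

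Single-nucleus RNA-seq gave 6 libraries, each from a subcutaneous flank tumor of TC1 cells, a mouse lung epithelial tumor line, grown for 24 days. All hosts were MCT2loxP/loxP mice crossed with a mouse carrying an inducible Cre transgene that acts in the whole body, 8 weeks old. The MCT2 KO group (3 libraries) was given tamoxifen once a day for 5 days and tumor cells 2 days later, and the MCT2 CO group (3 libraries) was given vehicle. MCT2, encoded by Slc16a7, is a monocarboxylate transporter that carries lactate, pyruvate and ketone bodies. The implanted cells did not come from these mice, so only host nuclei could lose the gene, and the deletion cannot be told apart from tamoxifen itself. The study describes the libraries of a group as biological replicates, and the labels do not name the animal of each.

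Slc16a7 counts were not lower in the libraries labelled KO. In macrophage nuclei its level was 97.4, 91.4 and 179 UMIs (unique molecular identifiers, the counted molecules) per 1e6 UMIs of that class (CPM) in CO replicates 1, 2 and 3, and 120.3, 148 and 170.0 in the KO replicates. The log2 fold change of KO against CO was 0.29 there (adjusted p = 0.865, edgeR quasi-likelihood test) and 0.90 in tumor nuclei (adjusted p = 0.603), where levels were between 1.65 and 7.21 CPM. Which exons the loxP sites flank is not given in the sources used here, and counts per gene at the 3′ end may lie outside the deleted part, so these counts are no check of the deletion. KO therefore means the libraries labelled KO throughout. The labels give the tissue as lung, whereas the methods describe flank tumors. In tumor nuclei the summed level of 11 lung epithelial markers was 10.6 to 20.5 CPM, and Sftpc, Sftpa1, Scgb1a1 and Nkx2-1 were at 0.

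After filtering, 18014 nuclei with 82441101 UMIs were available, with 1790 to 4776 nuclei a library and a median of 1099 to 4897.5 UMIs a nucleus. Nuclei were assigned by marker UMIs: a nucleus needed at least 3 UMIs over the list of a class and at least 2 times its UMIs over each other list. This gave 10343 tumor nuclei, 4779 macrophage nuclei and 360 T/NK nuclei, whereas 2340 (13.0%) stayed unassigned. In KO replicate 3 this share was 29.0%. Library pairs shared between 19 and 25 barcodes. The 6 tumor genes Slit2, Nxph1, Lhfpl3, Unc5c, Rnf150 and Efna5, which the assignment did not use, had, in macrophage nuclei, 7.02 to 13.6% of their summed level in tumor nuclei of the same library, and in T/NK nuclei 3.25 to 15.7%. This share served as a background level, and a share at or below it is read as background. Whether it comes from free or shared RNA or from expression was not tested. The study reports Slit2 as raised in KO macrophages. It also lists Nxph1, Lhfpl3, Unc5c and Rnf150 among genes that differ between KO and CO in mesenchymal stromal clusters. In the tumor class, the summed level of the 10 fibroblast markers was 372 to 761 CPM. The study names mesenchymal and fibroblast clusters but no tumor cluster. It states that separating implanted cells from host stromal cells would need lineage tracing or copy-number analysis. Neither was done here, and the part of host stromal nuclei in the tumor class was not tested. Tumor nuclei therefore means nuclei assigned to the tumor class throughout. KO replicate 1 stood apart from the other KO libraries. Without it, edgeR called 2307 of 13406 genes between KO and CO in tumor nuclei, against 0 with all 6 libraries.

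Levels of different genes are not compared, because counts from the 3′ end carry no common scale between genes. On GRCm38 (GENCODE vM21), the synthesis genes lie at chr11:100476353-100528000 (Acly), chr11:84129672-84401651 (Acaca), chr5:114146535-114250761 (Acacb), chr11:120805846-120824547 (Fasn), chr19:44394455-44407879 (Scd1) and chr19:44293674-44306864 (Scd2). The oxidation genes lie at chr19:3322334-3385733 (Cpt1a), chr7:44959372-44974851 (Cpt1c), chr4:107903981-107923610 (Cpt2) and chr1:66830839-66863277 (Acadl). Scd1 and Scd2 are neighboring paralogs with Scd3 and Scd4, so reads that fit more than 1 copy leave their counts uncertain. On the opposite strand, Acaca overlaps Gm11437, Acacb overlaps Gm13784, Cpt1c overlaps 6530437J22Rik and Acadl overlaps Gm27934. On the same strand, Acaca overlaps Gm37391 and Acadl overlaps Gm15793, and microRNA genes lie within Acly and Scd2. Of these, Gm11437 is the only one with a row in the matrices. Whether counting used the strand is not given in the sources used here.

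The promoters of Cpt1a and Cpt1c are shown because these relatives had opposite directions between macrophage and tumor nuclei. Each is the 250 bases before the RefSeq start (GRCm38.p6), read 5′ to 3′ on the strand of the gene, at chr19:3323051-3323300 on the plus strand for Cpt1a and chr7:44974852-44975101 on the minus strand for Cpt1c. Capitals mark matches, on either strand, to the letters CCAAT, bound by the factor NF-Y, and to the letters GGGCGG, bound by Sp1 and its relatives. No marked matches overlap.
Cpt1a: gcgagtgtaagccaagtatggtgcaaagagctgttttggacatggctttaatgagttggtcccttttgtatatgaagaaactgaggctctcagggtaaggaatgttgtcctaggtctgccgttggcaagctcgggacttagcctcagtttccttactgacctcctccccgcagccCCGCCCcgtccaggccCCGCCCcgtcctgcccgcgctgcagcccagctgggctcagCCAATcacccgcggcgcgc
Cpt1c: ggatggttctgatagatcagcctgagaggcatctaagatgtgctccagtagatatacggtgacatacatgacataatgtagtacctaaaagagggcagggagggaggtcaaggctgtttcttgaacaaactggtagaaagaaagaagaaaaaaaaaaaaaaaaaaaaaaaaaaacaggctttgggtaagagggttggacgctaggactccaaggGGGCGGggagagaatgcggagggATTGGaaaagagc
The Cpt1a window held 1 CCAAT and 2 GGGCGG matches and 59.6% G and C, and the Cpt1c window held 1 of each and 44.0% G and C. The Cpt1a window starts downstream of the first GENCODE start of the gene and overlaps annotated exons by 16 bases, and the Cpt1c window overlaps none. Of 32851 promoters of this length, 33.8% held CCAAT and 32.7% held GGGCGG, beside 4 and 5 of the 8 enzymes with a promoter in the table, which holds all but Scd1 and Scd2. None of the 8 held CACGTG (6.02% of all promoters) or TCACNCCAC (1.05%), the letters used for an E-box and a sterol element, or the DR1 element of nuclear receptors (0.0335%). The absence of a match says only that these letters are absent from this window.

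The study design asks first how the levels vary between the cell classes of the tumor. In macrophage nuclei, 4 of the 9 enzymes tested were lower than in tumor nuclei and none was called higher, beside 52.2% of all 10624 genes called and 28.7% called lower. A gene was called at a log2 fold change of at least 0.58 in size with an adjusted p of at most 0.05 in edgeR, with library as a block. The 4 were Cpt1c, Acaca, Fasn and Scd2, and each was lower in 6 of 6 libraries. The median over all genes was −0.07. Acacb had too few counts to be tested.

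**Figure D1:**
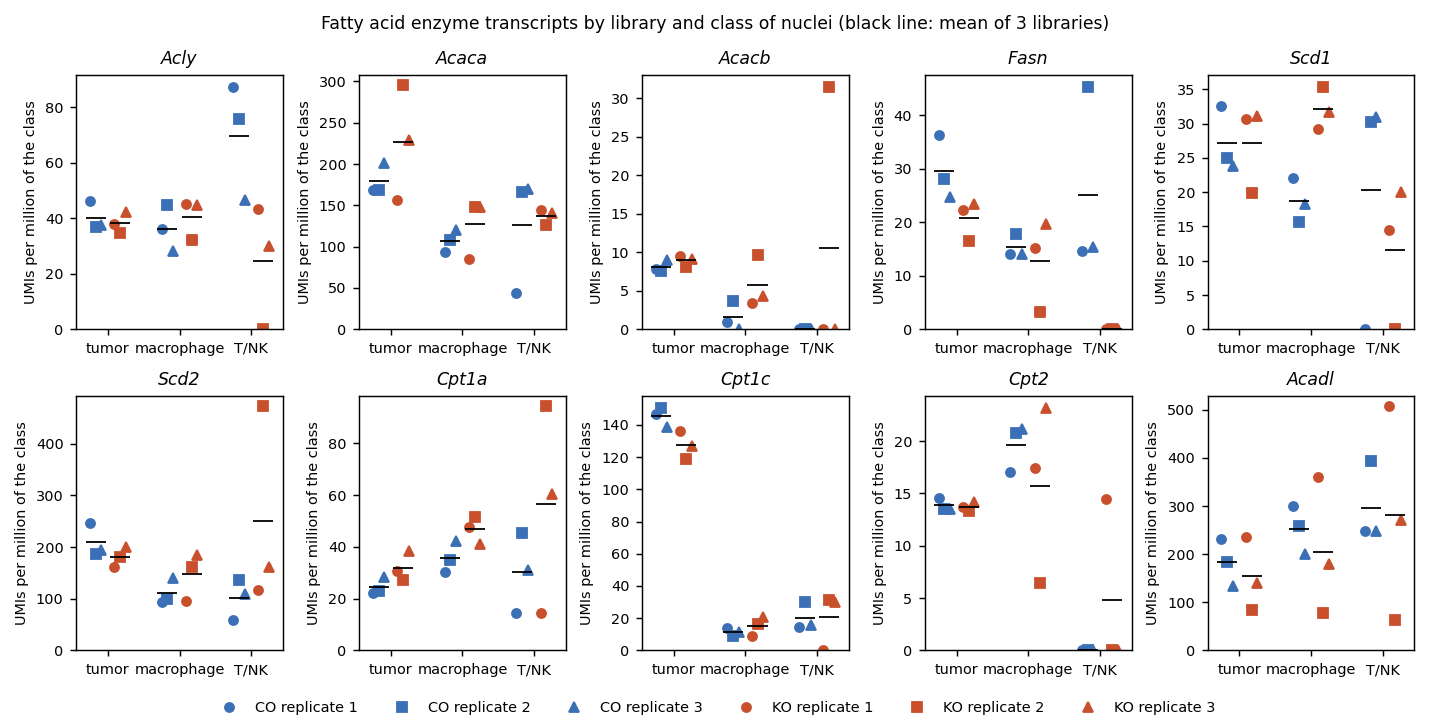
Level of each of the 10 enzymes in tumor, macrophage and T/NK nuclei. The vertical axes give CPM in the class, each point is a library (blue, CO; red, KO; shape, replicate) and black lines are means of 3 libraries. Cpt1c lay between 119 and 151 in tumor nuclei and between 8.92 and 20.6 in macrophage nuclei.

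Acaca, which makes malonyl-CoA for synthesis, measured 169, 169 and 202 CPM in tumor nuclei of CO replicates 1, 2 and 3 and 157, 296 and 229 in the KO replicates. In macrophage nuclei the corresponding levels were 93.4, 108 and 119.7, then 85.4, 148 and 149. Every macrophage value lay below every tumor value. The log2 fold change of macrophage against tumor nuclei was −0.84 (95% interval −1.09 to −0.60, adjusted p = 1.26e-07, edgeR). In T/NK nuclei Acaca rested on 3 to 14 UMIs a library, with a mean of 132 ± 46.3 CPM (SD, n = 6), and was also lower than in tumor nuclei (−0.84, adjusted p = 0.00142). Acacb, the carboxylase of the mitochondrial surface, was sparse: it measured 7.50 to 9.56 CPM in tumor nuclei, had 0 to 6 UMIs a library in macrophage nuclei, and had 1 UMI in all T/NK nuclei.

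Fasn measured 36.2, 28.2 and 24.6 CPM in tumor nuclei of the CO replicates and 22.4, 16.4 and 23.5 in those of the KO replicates. In macrophage nuclei it had 14.1, 17.8 and 14.1 CPM in CO and 15.2, 3.22 and 19.7 in KO, where the value of KO replicate 2 rests on 1 UMI. The log2 fold change of macrophage against tumor nuclei was −0.78 (−1.18 to −0.39, adjusted p = 0.000562, edgeR), and under a stricter assignment of nuclei it was −0.56, short of the fold threshold. T/NK nuclei held 5 Fasn UMIs, all in CO libraries, and the difference from tumor nuclei did not pass (adjusted p = 0.0907, edgeR) but was called without CO replicate 2 (−2.28).

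Acly, the acetyl-CoA source, was not called between tumor and macrophage nuclei, with levels of 39.3 ± 4.21 and 38.5 ± 7.34 CPM (SD, n = 6), with a log2 fold change of −0.04 (−0.34 to 0.25, adjusted p = 0.800, edgeR). Of the desaturases, Scd2 was lower in macrophage nuclei (129 ± 38.1 CPM) than in tumor nuclei (195 ± 28.8 CPM), by −0.70 (−0.98 to −0.42, adjusted p = 3.86e-05). This call was lost without CO replicate 1 (−0.50) and with nuclei limited to 500 genes and 5% mitochondrial UMIs (−0.38). Scd1 measured 25.4 ± 7.91 CPM in macrophage and 27.2 ± 5.00 CPM in tumor nuclei, and its change of −0.24 (−0.58 to 0.10) did not pass (adjusted p = 0.197, edgeR). In T/NK nuclei Scd2 was called lower than in tumor nuclei (−0.66, adjusted p = 0.0276), but in only 6 of 13 alternatives. The call was lost without CO replicate 1 (−0.40), CO replicate 2 (−0.61), CO replicate 3 (−0.60) or KO replicate 1 (−0.61).

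Of the 9 enzymes tested, Cpt1c had the largest difference between macrophage and tumor nuclei. In tumor nuclei its level was 147, 151 and 139 CPM in CO replicates 1, 2 and 3 and 136, 119 and 127 in the KO replicates. Macrophage nuclei had 14.1, 8.92 and 11.3 CPM in CO and 8.99, 16.1 and 20.6 in KO, on 5 to 24 UMIs a library. The lowest tumor value was far above the highest macrophage value. The log2 fold change was −3.48 (−3.83 to −3.14, adjusted p = 3.07e-19, edgeR), and in T/NK nuclei against tumor nuclei it was −3.03 (−3.76 to −2.29, adjusted p = 1.87e-08). Of all Cpt1c UMIs, 97.7% were in tumor nuclei, beside 87.8% of the UMIs of all genes.

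**Figure D2:**
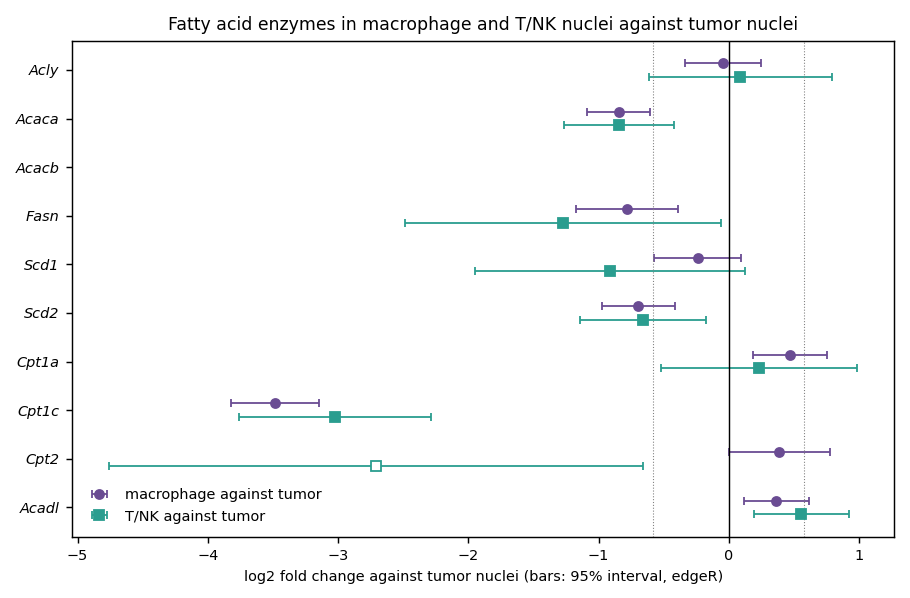
Log2 fold change of macrophage (circles) and T/NK (squares) nuclei against tumor nuclei for 9 enzymes, with 95% intervals from edgeR, and dotted lines at a log2 fold change of 0.58 in size. The open square (Cpt2) is a fitted value resting on 1 T/NK UMI, Acacb was not tested, and Cpt1c lies at −3.48 and −3.03.

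Cpt1c counts in immune nuclei were set against the background level. In macrophage nuclei Cpt1c had 9.57, 5.92 and 8.12% of its tumor level in the CO replicates and 6.59, 13.5 and 16.3% in the KO replicates. The 6 held-out tumor markers had 7.05, 7.22 and 7.02%, then 8.82, 12.9 and 13.6%. Cpt1c was below them in 2 of 6 libraries and above them in the others, and both were highest in KO replicates 2 and 3. In T/NK nuclei, Cpt1c had 9.92, 20.1 and 11.1% of its tumor level in the CO replicates and 0, 26.4 and 23.8% in the KO replicates, on 0 to 3 UMIs a library, and lay above the markers in 5 of 6 libraries. These few UMIs do not settle whether T/NK nuclei express it. The macrophage shares rest on few UMIs and lie around those of the markers, and whether macrophages express Cpt1c was not tested.

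**Figure D3:**
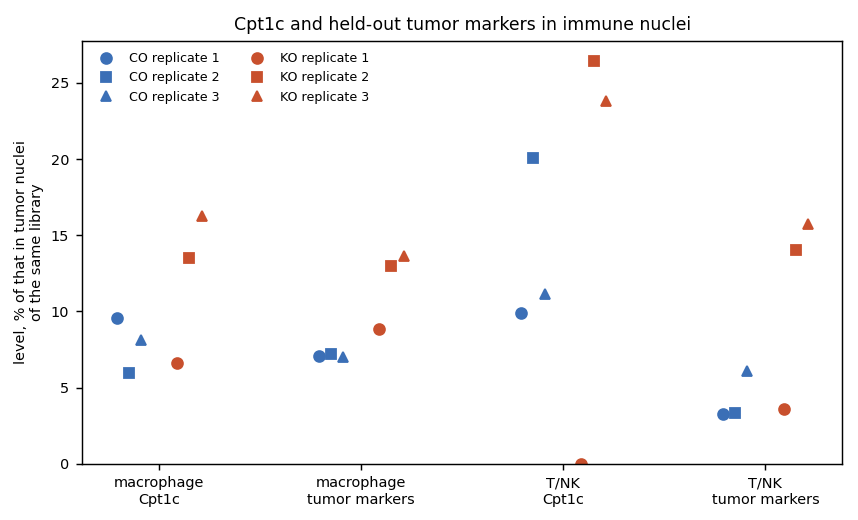
Cpt1c and the summed level of 6 held-out tumor markers in macrophage and T/NK nuclei, as a percentage of the level in tumor nuclei of the same library. Each point is a library (blue, CO; red, KO), and in macrophage nuclei both measures lie between 5.92 and 16.3%.

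Cpt1a, the outer-membrane enzyme that limits entry of fatty acids into mitochondria, went the other way. It measured 28.3 ± 5.83 CPM in tumor nuclei and 41.3 ± 7.90 CPM in macrophage nuclei (SD, n = 6), and was higher in macrophage nuclei in 6 of 6 libraries. The log2 fold change of 0.47 (0.19 to 0.76, adjusted p = 0.0035, edgeR) passed the p threshold but not the fold threshold, which it reached without KO replicate 3 (0.59). Acadl was also higher in p but not in fold, with 168 ± 59.7 CPM in tumor nuclei and 229 ± 99.8 CPM in macrophage nuclei, a change of 0.37 (0.12 to 0.62, adjusted p = 0.00888) and a higher value in 5 of 6 libraries. Macrophage nuclei held 10.6% of all Cpt1a UMIs and 10.9% of all Acadl UMIs, beside 7.65% of the UMIs of all genes. Cpt2, the inner-membrane enzyme, measured 13.8 ± 0.486 CPM in tumor nuclei and 17.7 ± 5.98 CPM in macrophage nuclei (0.39, adjusted p = 0.0704).

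Between T/NK and tumor nuclei, 4 of 9 enzymes were called lower (Cpt1c, Acaca, Scd2 and Cpt2), beside 36.4% of all genes called and 22.4% called lower, and none higher. Cpt2 had 1 UMI in all T/NK nuclei, which gives a ratio of 0.181 to tumor nuclei with a counting interval of 0.00459 to 1.01, so the fitted call rests on very little. It was lost in DESeq2 (−1.96), with nuclei limited to 500 genes and 5% mitochondrial UMIs (−2.34), and without CO replicate 1, 2 or 3 or KO replicate 3 (−2.48 to −2.29). Against macrophage nuclei, Cpt2 was the only enzyme of 9 called (of all genes, 21.4% were called and 13.9% were lower), with a ratio of 0.132 (0.0033 to 0.747), and this call was lost under the same limit on genes and mitochondrial UMIs and without CO replicate 2 or 3 or KO replicate 3. Acadl had 17, 26 and 16 UMIs in T/NK nuclei of the CO replicates and 35, 2 and 27 in those of the KO replicates. Its change against tumor nuclei of 0.56 (0.19 to 0.92, adjusted p = 0.0135, edgeR) was just under the fold threshold, and it was called higher in DESeq2 (0.60), under the stricter assignment (0.64) and without CO replicate 1 (0.70) or KO replicate 2 (0.66). The 2 tools split these sparse sums differently. For T/NK against tumor nuclei, edgeR called 1487 genes higher and 2379 lower of 10624 (median −0.23). DESeq2, run on 18061 genes without the low-count filter, called 2347 higher and 1851 lower (median 0.39). Without that filter, edgeR called 1615 higher and 2807 lower (median −0.68). Against macrophage nuclei the splits were 789 and 1482 in edgeR with the filter, and 1209 and 1161 in DESeq2. The part of scaling in these differences was not tested. In DESeq2, Cpt1c and Acaca (−0.78) were still called lower than in tumor nuclei, Acadl was called higher, and Scd2 and Cpt2 were not called.

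The other genes of the pathways were read from 3 lists: 29 genes of precursor supply, elongation, desaturation and fatty acid activation, 27 genes of oxidation and 19 regulators. In macrophage against tumor nuclei, 3 of the 21 tested synthesis genes were called higher and 5 lower, with a median of −0.03. Of all 10624 genes, 52.2% were called and 28.7% were called lower. Hacd4 (4.37), a dehydratase of elongation, and the acyl-CoA synthetases Acsl5 (1.92) and Acsl1 (1.83) were higher. Malic enzyme Me1 (−2.25), acetyl-CoA synthetase Acss2 (−2.01) and Hacd1 (−1.65) were lower, and the first 2 of these supply NADPH and acetyl-CoA. Of 25 oxidation genes, 3 were called higher and 1 lower (median −0.02), beside the same 52.2% of all genes called. The peroxisomal enzymes Ehhadh (1.90) and Acox3 (1.77) and the dehydrogenase Acad12 (0.60, called in 6 of 11 alternatives) were higher, and Eci2 (−0.90), an enoyl-CoA isomerase, was lower.

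Of 17 regulators tested between macrophage and tumor nuclei, 4 were called higher and 4 lower, with a median of −0.06. Of all genes, 52.2% were called and 28.7% were called lower. The nuclear receptor Pparg measured 165 ± 69.4 CPM in macrophage and 5.39 ± 4.88 CPM in tumor nuclei, a log2 fold change of 5.03. Ppara, the receptor that drives oxidation genes in liver, measured 1.02 ± 0.966 CPM in macrophage and 34.2 ± 3.12 CPM in tumor nuclei (−4.97). The co-activators split in the same way: Ppargc1b was higher in macrophage nuclei (3.02) and Ppargc1a lower (−3.19). Nr1h3, the oxysterol receptor LXR alpha, was higher (2.71), and Prkaa2, a catalytic subunit of AMP-activated kinase, was lower (−3.02).

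Against tumor nuclei, T/NK nuclei had 3 synthesis genes called higher and 5 lower of 21 (median −0.21), 2 and 2 oxidation genes of 25 (−0.20), and 2 and 5 regulators of 17 (−0.09). Of all genes, 36.4% were called and 22.4% were called lower. Hacd3 (1.82), Acsl5 (1.58), Elovl5 (0.77, called in 4 of 13 alternatives), Hadhb (0.93, called in 10 of 13), Ppargc1b (2.07, on 14 UMIs) and Ehhadh (2.23, on 5 UMIs, called in 4 of 7 alternatives) were called higher. Pparg (2.14) was also called higher, but 10 of its 12 T/NK UMIs were in KO replicate 3, and without that library the change was 0.70 and not called. Its T/NK level was 0 to 36.7% of its macrophage level in the same library, beside 2.50 to 13.7% for the 6 held-out macrophage markers. It was above the markers in 2 of 6 libraries, KO replicates 1 and 3, and is not read as expression in T/NK nuclei. Me1 (−2.22), Acsl3 (−1.79) and Fads1 (−1.68) were lower. Further lower calls rest on very few T/NK counts. Crat had 1 UMI (ratio 0.142, 0.00359 to 0.791), Ppargc1a had 1 (0.130, 0.0033 to 0.727) and Ppara had 2 (0.148, 0.0179 to 0.536), whereas Prkaa2 had 0 and was at least 1.77-fold lower with a floor of 3 counts over all T/NK nuclei.

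Against macrophage nuclei, T/NK nuclei had 2 synthesis genes called higher and 4 lower of 21 (median −0.09), 1 and 2 oxidation genes of 25 (−0.07), and 1 and 3 regulators of 17 (−0.15). Of all genes, 21.4% were called and 13.9% were called lower. Hacd3 (1.29), the elongase Elovl6 (1.03), Hadhb (0.83, called in 5 of 13 alternatives) and the sterol sensor Scap (0.86, called in 6 of 13) were higher. Acsl1 (−2.01), Fads1 (−1.88), Pparg (−2.90), Ppard (−1.20) and Acox3 (−1.04, called in 4 of 13 alternatives) were lower, as were Hacd4 with 3 T/NK UMIs (ratio 0.111, 0.0227 to 0.325), Nr1h3 with 2 (0.0897, 0.0108 to 0.326) and Crat with 1 (0.135). Cpt1b, the muscle form of the outer transferase, was listed at 0 in every nucleus, those assigned to muscle (97267 UMIs) included. Whether the annotation used for counting covered its transcripts was not tested, so no level is given for it.

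Within the tumor class, cycling nuclei were set against the others after each nucleus of at least 1000 UMIs was thinned to 1000. Cycling meant at least 2 thinned UMIs over a list of 22 cycling genes. Many of the other nuclei had 1 such UMI, from 181 of 378 in CO replicate 3 to 129 of 215 in KO replicate 3, so the cut separates the states only in part. In KO replicate 3, 612 of 1526 tumor nuclei were too shallow to enter. None of the 9 enzymes tested was called, beside 5.31% of 8664 genes. The smallest p was that of Fasn (−0.38, −0.76 to 0.01, adjusted p = 0.217, edgeR), and the others lay between −0.23 and 0.13. In the pathway lists, Elovl6 (−0.37, adjusted p = 0.00325) and Hsd17b4 (−0.27, adjusted p = 0.000479), a peroxisomal enzyme, passed the p threshold below the fold threshold, and Ppargc1a changed by 0.56 without a call. In macrophage nuclei with monocyte markers against those with mature markers, only Acaca (0.07, adjusted p = 0.945) and Acadl (0.29, adjusted p = 0.489) could be tested and neither was called, beside 8.35% of 2394 genes. In that contrast edgeR called 117 genes higher and 83 lower, and DESeq2 called 100 and 39. Of the lists, Acsl4 (−0.32), Etfa (−0.56) and Pparg (−0.25) had the smallest p and were not called.

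The central comparison of the study is KO against CO. In tumor nuclei none of the 10 enzymes was called, and edgeR called 0 of all 13300 genes (0%). Before adjustment 815 were under 0.05, and with DESeq2 there were 19 calls. The median change of the 10 enzymes was 0.02, beside −0.02 for all genes. Fasn and Cpt1c did not overlap between the groups, 2 of 10 enzymes beside 12.3% of all genes. Fasn had mean levels of 29.7 ± 5.95 in CO libraries and 20.8 ± 3.78 CPM in KO libraries (SD, n = 3), a log2 fold change of −0.47 (−0.98 to 0.04, adjusted p = 0.603, edgeR), with each KO value below each CO value. Mean Cpt1c was 145 ± 6.05 CPM in CO libraries and 127 ± 8.70 in KO libraries (−0.13, −0.46 to 0.19, adjusted p = 0.662).

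Cpt1a in tumor nuclei measured 22.3, 23.1 and 28.5 CPM in the CO replicates and 30.5, 27.1 and 38.3 in the KO replicates, so the groups overlapped only at CO replicate 3 and KO replicate 2. Its change of 0.44 (0.01 to 0.87) had the only unadjusted p under 0.05 of the 10 (adjusted p = 0.603, edgeR). Acaca changed by 0.42 (−0.21 to 1.05) with 180 ± 19.0 CPM in CO and 227 ± 69.6 CPM in KO, where KO replicate 2 was the highest and KO replicate 1 the lowest of the 6 libraries. Without KO replicate 1, Acaca was called higher (0.64, adjusted p = 0.0496, edgeR), beside 2307 of all 13406 genes called in that setting. Acly (−0.01), Cpt2 (0.05), Scd1 (0.05), Scd2 (−0.15), Acacb (0.20) and Acadl (−0.21) had intervals that include 0. Of the 26, 25 and 17 genes tested from the 3 lists none was called, and the smallest p in each was that of the citrate carrier Slc25a1 (−0.76), of Crat (−0.67) and of Ppargc1a (0.79), each with an adjusted p of 0.603. Without KO replicate 1, Crat (−0.81) and Ppargc1a (0.91) were called, beside the same 2307 of 13406 genes.

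**Figure D4:**
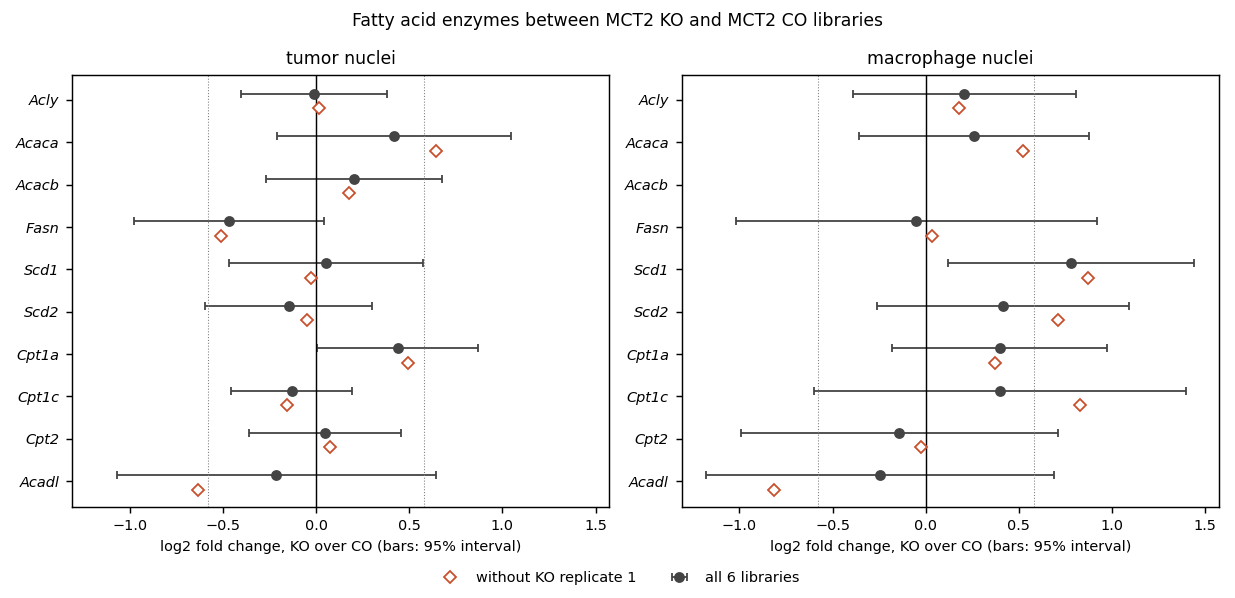
Log2 fold change of KO over CO for each enzyme in tumor (left) and macrophage (right) nuclei. Filled circles with 95% intervals use all 6 libraries, open diamonds leave out KO replicate 1, and dotted lines mark 0.58 in size; Scd1 in macrophage nuclei lies at 0.78 with an interval from 0.12 to 1.44.

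In macrophage nuclei none of the 9 enzymes tested was called either, and edgeR called 0 of 9689 genes (0%). Before adjustment 520 were under 0.05, and with DESeq2 there were 4 calls (Nbea, Ksr2, Oprm1 and Peli2, named after their values were seen). Scd1 was the only enzyme whose groups did not overlap, 1 of 9 beside 11.4% of all genes. It had 22.1, 15.6 and 18.3 CPM in the CO replicates and 29.2, 35.4 and 31.8 in the KO replicates, on 11 to 52 UMIs a library. The change of 0.78 (0.12 to 1.44) did not pass (adjusted p = 0.862, edgeR). The summed level of 12 adipocyte markers in these nuclei was 33.4 to 53.2 CPM in CO and 12.9 to 34.3 CPM in KO, with Plin1, Pck1, Lep, Retn and Slc7a10 at 0. The part of adipocyte RNA in the Scd1 values was not tested.

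Besides Scd1, 5 enzymes in macrophage nuclei had a change above 0.2, with intervals that include 0: Scd2 0.42 (−0.26 to 1.09), Cpt1a 0.40, Cpt1c 0.40, Acaca 0.26 and Acly 0.21. The held-out tumor markers in macrophage nuclei had 7.02 to 7.22% of their tumor level in CO libraries and 8.82 to 13.6% in KO libraries, without overlap. Their part in the values of Scd2, Acaca and Cpt1c, which were lower in macrophage than in tumor nuclei, was not tested. Without KO replicate 1, Scd2 was called higher (0.71, adjusted p = 0.0264, edgeR), beside 1793 of all 9725 genes called in that setting. Fasn changed by −0.05 (−1.02 to 0.92) and Cpt2 by −0.14 (−0.99 to 0.71), with 1 and 2 UMIs in KO replicate 2. These wide intervals leave both the direction and the size of either change unsettled. The median of the 9 enzymes was 0.26, beside 0.01 for all genes. No gene of the 3 lists was called, with the smallest p among synthesis genes for Acsl4 (0.52) and among regulators for Ppard (−0.45), each with an adjusted p of 0.862 (edgeR). Acsl4 was called without KO replicate 1 (0.79), beside the same 1793 of 9725 genes.

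Acadl split the KO libraries. In macrophage nuclei it measured 300.3, 259 and 200.0 CPM in the CO replicates and 361, 77.2 and 179 in the KO replicates, so the KO group held both the highest and the lowest value. In tumor nuclei the values were 232, 184 and 133 in CO and 236, 84.9 and 141 in KO, with the same libraries at both ends. The changes were −0.25 (−1.18 to 0.69, adjusted p = 0.900, edgeR) and −0.21 (−1.07 to 0.64, adjusted p = 0.781). Without KO replicate 1, Acadl was called lower in macrophage nuclei (−0.81, adjusted p = 0.0321, edgeR), beside 1793 of all 9725 genes called in that setting. Without KO replicate 2 the Acadl change was 0.09.

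The share of UMIs from ribosomal protein genes, a sign of how much cytoplasmic RNA a nuclear library holds, moved with Acadl across libraries. In macrophage nuclei this share was 1.99, 1.97 and 1.53% in the CO replicates and 2.45, 0.621 and 1.15% in the KO replicates, and its order over the 6 libraries was that of Acadl. In tumor nuclei it was 1.60, 1.33 and 0.961%, then 1.53, 0.436 and 0.728%, where CO replicate 1 and KO replicate 1, and CO replicate 3 and KO replicate 3, traded places. The part of this share in the Acadl values was not tested.

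**Figure D5:**
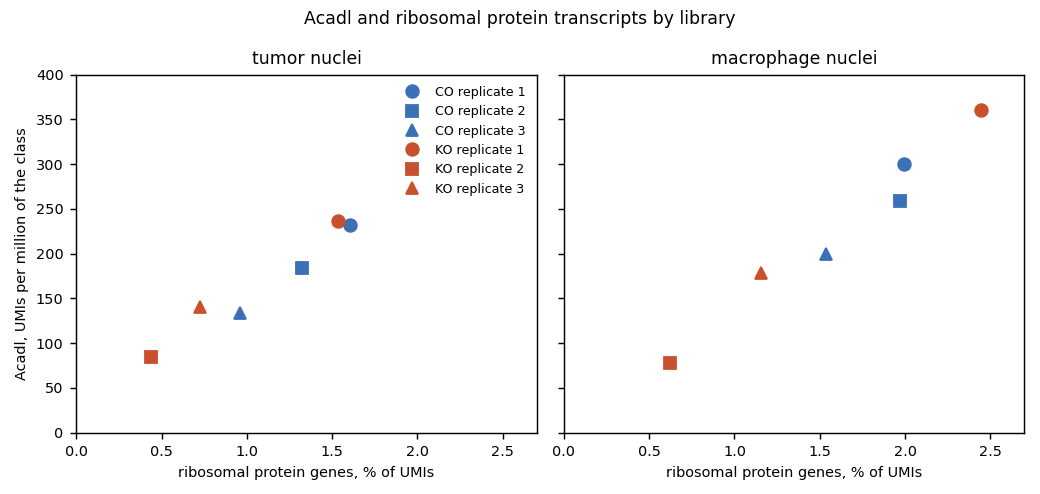
Acadl (CPM in the class) against the share of UMIs from ribosomal protein genes (percent) in tumor (left) and macrophage (right) nuclei. Each point is a library (blue, CO; red, KO; shape, replicate); KO replicate 2 is lowest on both axes in both classes, and KO replicate 1 is highest on both axes in macrophage nuclei.

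In T/NK nuclei only Acadl had enough counts to be tested between the groups, with 248, 393 and 248 CPM in the CO replicates and 507, 63.0 and 271 in the KO replicates. The groups of Acadl overlapped, whereas those of 9.68% of the 1777 genes tested did not, and the change was 0.06 (−1.04 to 1.16, adjusted p = 0.994, edgeR). None of these genes was called by edgeR (0%, with 61 under 0.05 before adjustment) or by DESeq2. Among list genes the smallest p were those of Acsl4 (0.64) and Hsd17b4 (−0.58), neither called. Fasn had 1, 3 and 1 UMIs in the CO replicates and 0 in each KO replicate, which the depth of 31750 to 99480 T/NK UMIs a library does not separate.

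Whether the change between groups differed between macrophage and tumor nuclei was asked with an interaction term and a block for library. None of the 10 enzymes was called, and 1 of 12632 genes was (0.00792%): Peli2 (2.03, adjusted p = 0.00606, edgeR), an E3 ligase named here after its value was seen, which was not called without CO replicate 1, 2 or 3. The desaturases came nearest, with Scd1 at 0.69 (0.06 to 1.32, adjusted p = 0.711) and Scd2 at 0.56 (0.02 to 1.11, adjusted p = 0.719). Both had a more positive KO change in macrophage than in tumor nuclei. Of the lists, Fads2 (0.66), Hsd17b4 (0.48) and Ppard (−0.45) had the smallest p and were not called.

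Adipocytes are the classical site of fat synthesis, and 63 nuclei with 57998 UMIs were assigned to them. These held 46 Acaca UMIs, or 793 CPM (exact Poisson interval 581 to 1058, counting error only), 7 Acacb UMIs, or 121 CPM (48.5 to 249), 13 Scd1 UMIs, or 224 CPM (119 to 383), and 12 Acadl UMIs, or 207 CPM (107 to 361). Acly and Cpt1a had 1 UMI each, whereas Fasn, Scd2, Cpt1c and Cpt2 had 0, which allows up to 63.6 CPM by the same exact interval. That limit is above the tumor means of Fasn (25.2 CPM) and Cpt2 (13.8 CPM) and below those of Scd2 (195 CPM) and Cpt1c (136 CPM). The zeros of Fasn and Cpt2 therefore do not place them below tumor nuclei.

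Across the 18 sums of 3 classes and 6 libraries, the 2 genes whose levels were most like each enzyme were named from 9923 genes by Pearson correlation, as a description, since the sums share libraries and depth. For Cpt1c they were Klhl23 (0.975) and Dclk1 (0.952). For Acaca they were Memo1 (0.953) and Il1r1 (0.924), and for Scd2 Pank2 (0.883) and Hace1 (0.864). Acadl was most like Npm1 (0.976), a nucleolar chaperone, and S100a11 (0.968), a calcium-binding protein. The other pairs were Fbxo28 (0.988) and Zfp110 (0.987) for Acly, Morn2 (0.982) and Ankrd50 (0.969) for Fasn, Pitrm1 (0.983) and Ptgs2 (0.981) for Scd1, Cnnm4 (0.860) and Cenpo (0.860) for Cpt1a, and Shmt2 (0.983) and Tmem242 (0.981) for Cpt2. Low T/NK counts enter each of these correlations.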

How the data were processed

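Nuclei of frozen tumors were sequenced with droplet 3′ chemistry (Chromium v3.1). The authors aligned reads to GRCm38 with Cell Ranger 3.0.2 (3.1.0 in the file headers) and analyzed them in Seurat 5.2.1. They deposited UMI counts for each gene and nucleus as raw whole numbers, so the removal of free RNA (SoupX) named in the methods is not visible in them. Whether introns were counted is not given in the sources used here, and some samples, not named, had extra washes.

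Nuclei with 100 to 7500 genes and under 20% mitochondrial UMIs, the limits of the study, were kept. Counts were summed per library and class, so deeper nuclei weigh more. Tumor nuclei over 3 times the median depth of their library held from 43.1% (CO replicate 1) to 90.2% (KO replicate 3) of the tumor UMIs. In macrophage nuclei this share was at most 6.91% (KO replicate 3). Libraries were the replicates and took their groups from the titles. KO and CO were compared by quasi-likelihood F-tests in edgeR 4.0.16 under R 4.3.3, with TMM and the default low-count filter, with no covariate, and classes with library as a block. Adjusted p-values are Benjamini-Hochberg values over all genes tested, and thresholds are those of the study. DESeq2 1.42.0 was an alternative. No doublet caller was run. Of the 2340 unassigned nuclei, 1043 had at least 3 UMIs over the lists of more than 1 class. A nucleus with markers of another class was kept where its own list had at least 2 times as many UMIs. Doublets of different classes can therefore remain, as can doublets of 1 class. Marker lists include genes that the study named for its clusters. Replicates of a group differed by a chi-square of 8.60 to 195 per degree of freedom, so none was a copy.

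Other pathway genes were named by a rule: in each list and comparison, up to 3 called genes in each direction with the largest change, otherwise the gene with the smallest p. A gene that this rule names in the oxidation list is not reported here. The members, lists and rules were chosen with earlier results of these data known. Intervals and floors from counts (95%, 3 counts) cover counting error only. Sequences are from RefSeq (GRCm38.p6). Python 3.11.15 (scipy 1.17.1, pandas 2.3.3, numpy 2.4.6) was used. On simulated counts, 98.98% of 4-fold and 47.5% of 2-fold changes between KO and CO in tumor nuclei were recovered among 13264 genes. In macrophage nuclei 96.8% and 29.5% were recovered. The simulated libraries shared 1 spread, and none stood apart as KO replicate 1 did. That spread was set smaller than the relative spread between replicates fitted here, 28.2% in tumor and 26.0% in macrophage nuclei. Recovery in these data may therefore be lower.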

Additional observations from a re-analysis of the deposited data

How the results depend on the processing

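Across alternatives, none of the enzymes was called between KO and CO with all 6 libraries, and Cpt1c and Acaca stayed lower in macrophage and in T/NK than in tumor nuclei in 13 of 13. Numbers of genes called moved by more than 1.5 times as follows. DESeq2 called 19 genes between KO and CO in tumor nuclei, 4 in macrophage nuclei and 7 in the interaction. With no low-count filter, 3 (Ksr2, Oprm1 and Peli2) were called in macrophage nuclei, 3 (Xcl1, Pcdh7 and Ghr) in T/NK nuclei and 70 in the interaction. Thinned nuclei gave 2487 for T/NK against tumor nuclei, and without the replicate block cycling nuclei gave 222 and monocyte-marker nuclei 57. Leaving out 1 library in turn gave 0 to 2307 calls in tumor nuclei, 0 to 1793 in macrophage nuclei, 0 to 65 in T/NK nuclei and 0 to 145 in the interaction (9 without KO replicate 3), the highest each time without KO replicate 1, and 113 to 240 for monocyte-marker nuclei (113 without KO replicate 1).

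Whether replicate numbers pair the samples is not given in the sources used here. Deviations from the group mean of same-numbered libraries correlated at 0.52, −0.20 and 0.36 in tumor nuclei. The values were 0.31, −0.21 and 0.24 in macrophage nuclei and 0.15, −0.11 and 0.25 in T/NK nuclei. With 3 libraries a group, these correlations cannot decide it. The median mitochondrial share was 6.80, 4.14 and 1.34% in CO replicates 1, 2 and 3, and 6.28, 3.85 and 0.896% in the KO replicates. With a replicate block, edgeR called 0 genes in each class. Genes at an unadjusted p under 0.05 (edgeR) then numbered 1754, 672 and 69, beside 815, 520 and 61 without the block.

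Small changes turned sign, and the cause was not tested. Values are given with the setting: DESeq2, no low-count filter, the stricter assignment (5 UMIs and 4 times), at least 500 genes with 5% mitochondrial UMIs, no nuclei over 3 times the median depth, thinned to 1000 UMIs, replicate block, or cycling at 3 UMIs. For KO against CO in tumor nuclei, Acly became 0.013 (DESeq2), 0.013 (no filter), 0.019 (stricter), 0.20 (500 genes), 0.022 (no deep nuclei) and 0.051 (thinned), then Scd2 0.23 (no deep nuclei), then Cpt1c 0.026 (500 genes), then Acadl 0.086 (no deep nuclei). For KO against CO in macrophage nuclei, Fasn became 0.027 (500 genes), then Cpt2 0.054 (stricter). For KO against CO in T/NK nuclei, Acadl became −0.20 (stricter), −0.48 (thinned) and −0.046 (replicate block). For macrophage against tumor nuclei, Acly became 0.0896 (stricter) and 0.16 (thinned), then Scd1 0.061 (500 genes). For T/NK against tumor nuclei, Acly became −0.016 (no filter), −0.26 (stricter), −0.33 (500 genes) and −0.19 (thinned), then Cpt1a −0.20 (thinned). For T/NK against macrophage nuclei, Acly became −0.35 (stricter), −0.25 (500 genes) and −0.35 (thinned), then Acaca −0.0599 (no filter), −0.31 (stricter), −0.061 (no deep nuclei), −0.085 (thinned) and −0.004 (no replicate block), then Scd2 −0.021 (no filter), −0.11 (stricter), −0.25 (500 genes), −0.022 (no deep nuclei) and −0.37 (thinned), then Cpt1a 0.14 (stricter), then Acadl −0.039 (500 genes). For the interaction, Cpt1a became 0.21 (stricter), then Cpt1c −0.0017 (stricter), then Cpt2 0.011 (stricter). For cycling against other tumor nuclei, Acaca became 0.011 (no filter), 0.018 (stricter) and 0.054 (3 UMIs), then Scd1 −0.017 (stricter), then Cpt1a −0.29 (3 UMIs), then Cpt2 0.20 (3 UMIs). For monocyte-marker against mature-marker nuclei, Acaca became −0.21 (no filter).

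Leaving out 1 library turned the sign of further small changes, with these lowest and highest log2 values. For the interaction these were Acaca −0.24 to 0.037, Acadl −0.27 to 0.044, Cpt1a −0.17 to 0.13, Cpt1c −0.036 to 1.10, Cpt2 −0.42 to 0.052. For T/NK against macrophage nuclei these were Acaca −0.14 to 0.10, Acly −0.18 to 0.32, Scd2 −0.21 to 0.14. For cycling against other tumor nuclei these were Acaca −0.092 to 0.056, Acadl −0.11 to 0.0101, Cpt1a −0.083 to 0.28, Scd1 −0.10 to 0.23. For monocyte-marker against mature-marker nuclei these were Acaca −0.019 to 0.15. For KO against CO in T/NK nuclei these were Acadl −0.58 to 0.41. For KO against CO in macrophage nuclei these were Acadl −0.81 to 0.0899, Cpt1c −0.073 to 0.83, Cpt2 −0.43 to 0.037, Fasn −0.35 to 0.16. For KO against CO in tumor nuclei these were Acadl −0.63 to 0.057, Acly −0.072 to 0.12, Scd1 −0.045 to 0.22, Scd2 −0.22 to 0.0075. For T/NK against tumor nuclei these were Acly −0.10 to 0.29. For macrophage against tumor nuclei these were Acly −0.066 to 0.072.

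With no filter, monocyte-marker nuclei had 79 genes called higher and 185 lower. In T/NK nuclei, sums of 31750 to 99480 UMIs a library limit what can be tested.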
